A study of Mus musculus with 6 samples.

Results

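The p53 and growth arrest genes are 10 genes that were chosen by symbol, namely Trp53, Cdkn1a, Mdm2, Ccng1, Trp53inp1, Bax, Bbc3, Gadd45a, Sesn1 and Sesn2. All 10 had a row in the table of 13226 genes, and all passed the count filter. RNA was sequenced from whole tibialis anterior (TA) muscles of male C57BL/6 mice aged 8 weeks, taken 7 days after intramuscular injection of AAV6:Yap-shRNA, which targets the transcriptional co-activator Yap, or of a control vector. Each of the 2 groups held 3 muscles. In the titles of the samples the control is an empty vector, but their vector field names AAV6:LacZ-shRNA, and the group is called control here. Opposite legs of an animal received the vectors, so every control muscle came from a mouse that also carried the Yap-shRNA vector. The hairpin was cloned into a plasmid with the CMV promoter, which is not restricted to muscle fibres, and the vector plasmid also encodes eGFP.

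The protein p53 is a transcription factor that is stabilised after DNA damage and other stresses. It then raises transcription of genes that halt the cell cycle, repair DNA, trigger apoptosis or restrain growth, and of Mdm2, whose product marks p53 for degradation and so closes a feedback loop. Several of these genes, among them Cdkn1a and Gadd45a, also respond to p53-independent signals, and in skeletal muscle both are known to be induced by denervation, fasting and disuse.

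No member passed the threshold (adjusted p under 0.05, edgeR quasi-likelihood test with Benjamini-Hochberg adjustment over all genes), and 0% of the 13226 genes did. Cdkn1a, which encodes the cyclin-dependent kinase inhibitor p21, was 1.498-fold higher in Yap-shRNA muscles than in control muscles, and Gadd45a was 1.44-fold higher. These were the 2 of 10 members with an unadjusted p under 0.05, both in the higher direction, where the share over all genes was 1.75% in both directions together and 0.885% in the higher direction. DESeq2, the edgeR likelihood ratio test and limma-voom also called 0 of the 10 members. In 3 of 10 members, Trp53, Cdkn1a and Sesn2, all 3 Yap-shRNA muscles lay above all 3 control muscles, which was so for 2.56% of all genes. The reverse was seen in 0 members and in 2.71% of all genes, so that 5.27% of all genes had no overlap of the groups in either direction. The log2 fold change was positive in 7 members and negative in 3, with a median of 0.10 beside -0.0029 over all genes tested. The members were chosen with earlier results of these data known. The shares and the median are thus a description and give no independent support. In whole muscle, a change in the number of cells of a type and a change in RNA per cell cannot be told apart.

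Yap1, the targeted gene, was measured at 71.2, 65.3 and 68.4 CPM (counts scaled to library size with the TMM factors of edgeR) in control muscles 1, 2 and 3, and at 32.0, 23.9 and 39.5 CPM in Yap-shRNA muscles 1, 2 and 3. The Yap-shRNA muscles were all below the control muscles, at 46.5% of the control level, with a log2 fold change of -1.10 (SE 0.16), an unadjusted p of 6.89e-05 and an adjusted p of 0.436 by the edgeR quasi-likelihood test. Yap1 was thus not called in this fit, although DESeq2 and the likelihood ratio test called it. Library totals were 11987167 to 12710393 counts. The 10 muscle fibre markers had a summed level of 136026 to 161680 CPM in the controls, and of 132828 to 154601 CPM after Yap-shRNA. Single muscles stood apart in the markers of other tissues. The 6 liver markers summed to 371.9 CPM in control 3 and to 0.319 to 40.3 CPM in the other muscles. The 5 tendon markers summed to 639 CPM in control 1, to 529 CPM in Yap-shRNA 3 and to between 126 and 174 CPM elsewhere, while all 10 macrophage markers were measured and summed to 100.4 to 237.9 CPM in control and 172.1 to 222.0 CPM in Yap-shRNA muscles. Although these sums overlapped, with control 1 the highest, all 10 macrophage markers had a positive log2 fold change, with a median of 0.34, and in 1 of them, Cd163, the groups did not overlap. The 6 fibroblast markers summed to 2281 CPM in Yap-shRNA 3, to 1998 CPM in control 1 and to 1033 to 1229 CPM elsewhere. The median log2 fold change of the 5 adipocyte markers was 1.04, with 4 positive and 1, Fabp4, negative at -0.098. Their sums, most of them Fabp4, were 238.6 to 269.4 CPM in control and 232.9 to 287.2 CPM in Yap-shRNA muscles. The adipokine gene Adipoq was at 16.3 CPM in Yap-shRNA 3 and at 1.59 to 4.75 CPM elsewhere. Cd163, Fabp4 and Adipoq were named after their values were seen. None of the 5 neutrophil and 8 lymphocyte markers had a row in the table. Their part in the results below was not tested.

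The half-site that p53 binds in DNA is a motif of 10 letters, which reads as the same motif on both strands. It was searched in RefSeq promoter windows of the mouse genome (GRCm38.p6), each of 250 bases before to 50 bases after a gene's start. Of the members, 9 had at least 1 window, and 7 of these 9 (77.8%) held an exact half-site, against 2582 of 27025 genes (9.55%). Per window the shares were 53.8% of 13 member windows and 8.36% of all windows. Because the members were chosen as genes of the p53 pathway, the higher share is no separate result about them. Trp53inp1 was the member with no window. The sites are shown because the members were grouped as genes of the p53 pathway, and the capitals mark the half-site within 10 bases on either side.
Trp53, chr11:69580274-69580303, plus strand: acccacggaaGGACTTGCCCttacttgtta
Cdkn1a (farther from the start), chr17:29090896-29090925, plus strand: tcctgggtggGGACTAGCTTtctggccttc
Cdkn1a (nearer to the start), chr17:29090918-29090947, plus strand: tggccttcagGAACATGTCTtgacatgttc
Gadd45a, chr6:67037428-67037457, minus strand: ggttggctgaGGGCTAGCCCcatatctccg
Ccng1, chr11:40755452-40755481, minus strand: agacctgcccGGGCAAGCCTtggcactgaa
Mdm2, chr10:117710925-117710954, minus strand: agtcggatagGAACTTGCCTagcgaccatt
Bax, chr7:45467080-45467109, minus strand: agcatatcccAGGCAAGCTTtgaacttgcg
Sesn1, chr10:41887256-41887285, plus strand: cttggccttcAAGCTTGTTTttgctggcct
No exact half-site was present in the windows of Bbc3 and Sesn2. A full site, taken as 2 half-sites with at most 1 mismatch and at most 13 bases between them, was found in 137 of 32851 windows (0.417%), and among the members only in the upstream window of Cdkn1a. That window held 2 full sites, which share a half-site. The exact one joins the 2 half-sites of Cdkn1a listed above, with 0 mismatches and 12 bases between them. The other is 2 adjoining half-sites with 1 mismatch between them. The 250 bases before this start are shown with the latter site in capitals.
Cdkn1a, chr17:29090729-29090978, plus strand: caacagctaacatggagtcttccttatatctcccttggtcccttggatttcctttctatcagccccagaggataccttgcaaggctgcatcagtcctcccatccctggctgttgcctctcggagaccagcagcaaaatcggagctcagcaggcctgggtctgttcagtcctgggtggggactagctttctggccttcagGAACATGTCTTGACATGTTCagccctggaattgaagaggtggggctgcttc
The second window of Cdkn1a, at its other start, held no half-site, and counts per gene cannot tell which start the transcripts came from. These matches describe the sequence, and no binding was measured.

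Trp53 (ENSMUSG00000059552), which encodes p53 itself, lies at chr11:69580359-69591873 on the plus strand of GRCm38. It was measured at 17.9, 15.2 and 18.5 CPM in control muscles 1, 2 and 3 and at 18.7, 21.0 and 20.3 CPM in Yap-shRNA muscles 1, 2 and 3. The groups did not overlap, but Yap-shRNA 1 was only just above control 3, and control 2 was the lowest muscle. The log2 fold change was 0.22 (SE 0.12, 95% interval -0.05 to 0.48), with an unadjusted p of 0.0984 and an adjusted p of 1.00 by the edgeR quasi-likelihood test. The interval, like those below, is for a single gene and was not adjusted for the number of genes. An exact two-sided permutation test gave p = 0.1, which is the smallest value that 3 against 3 muscles allow. The protein p53 is regulated largely through its stability, which transcript counts do not measure.

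Mdm2 (ENSMUSG00000020184) encodes the ubiquitin ligase that restrains p53 and is itself a p53 target. It lies at chr10:117688875-117710758 on the minus strand. Control muscles 1, 2 and 3 were at 46.5, 44.6 and 43.1 CPM, and Yap-shRNA muscles 1, 2 and 3 were at 48.1, 49.4 and 44.6 CPM. Yap-shRNA 3 fell within the control range, and the 6 muscles were close together. The range over the muscles, 0.198 on the log2 scale, was at percentile 5.79 of the ranges of all genes. Mdm2 had a log2 fold change of 0.08 (SE 0.091, 95% interval -0.12 to 0.29), with an adjusted p of 1.00 by the edgeR quasi-likelihood test.

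Among the genes that act on the cell cycle, Cdkn1a (ENSMUSG00000023067, chr17:29090976-29100727, plus strand) was counted 452, 347 and 473 times in control muscles 1, 2 and 3 and 562, 564 and 801 times in Yap-shRNA muscles 1, 2 and 3. This was 35.2, 29.0 and 38.8 CPM in control and 47.1, 43.3 and 63.9 CPM in Yap-shRNA muscles. All Yap-shRNA muscles were above all control muscles, with Yap-shRNA 3 well above the other two of its group and control 2 the lowest muscle. This gave a log2 fold change of 0.58 (SE 0.16, 95% interval 0.21 to 0.95), with an unadjusted p of 0.00591 and an adjusted p of 1.00 by the edgeR quasi-likelihood test. An exact two-sided permutation test gave p = 0.1, the smallest possible. Yap-shRNA 3 also had the most Yap1 of its group, and Yap-shRNA 2 had the least of both Yap1 and Cdkn1a. Yap-shRNA 3 was the muscle with the most fibroblast and Adipoq transcripts, and without it the log2 fold change of Cdkn1a was 0.40. Within Cdkn1a, 273 exonic bases (7.68% of its exon length) overlap AC167363.2 on the opposite strand, and the strand setting of the counting is not given in the sources used here.

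Gadd45a (ENSMUSG00000036390) encodes a stress protein that inhibits the cell cycle and takes part in DNA repair, and lies at chr6:67035096-67037457 on the minus strand. It was counted 213, 216 and 188 times in control muscles 1, 2 and 3 and 344, 223 and 327 times in Yap-shRNA muscles 1, 2 and 3, or 16.6, 18.1 and 15.4 CPM against 28.9, 17.1 and 26.1 CPM. Yap-shRNA 1 and 3 were above all control muscles, whereas Yap-shRNA 2 was within the control range, below control 2. Gadd45a had a log2 fold change of 0.52 (SE 0.18, 95% interval 0.11 to 0.94), with an unadjusted p of 0.0185 and an adjusted p of 1.00 by the edgeR quasi-likelihood test. The exact two-sided permutation test gave p = 0.2. In Gadd45a, 337 exonic bases (19.1%) overlap E230016M11Rik on the opposite strand, so that without a known strand setting its counts are uncertain.

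Ccng1 (ENSMUSG00000020326), a p53 target that encodes cyclin G1, lies at chr11:40748552-40755311 on the minus strand. Control muscles 1, 2 and 3 were at 882, 786 and 956 CPM and Yap-shRNA muscles 1, 2 and 3 at 917, 825 and 847 CPM. The Yap-shRNA muscles all lay between the lowest control muscle, control 2, and the highest, control 3. The log2 fold change was -0.02 (SE 0.10), and its 95% interval of -0.25 to 0.21 bounds how far the group means could differ for this abundant transcript. Unlike Cdkn1a and Gadd45a, its interval spanned 0, but the difference between these genes was not tested.

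**Figure D1:**
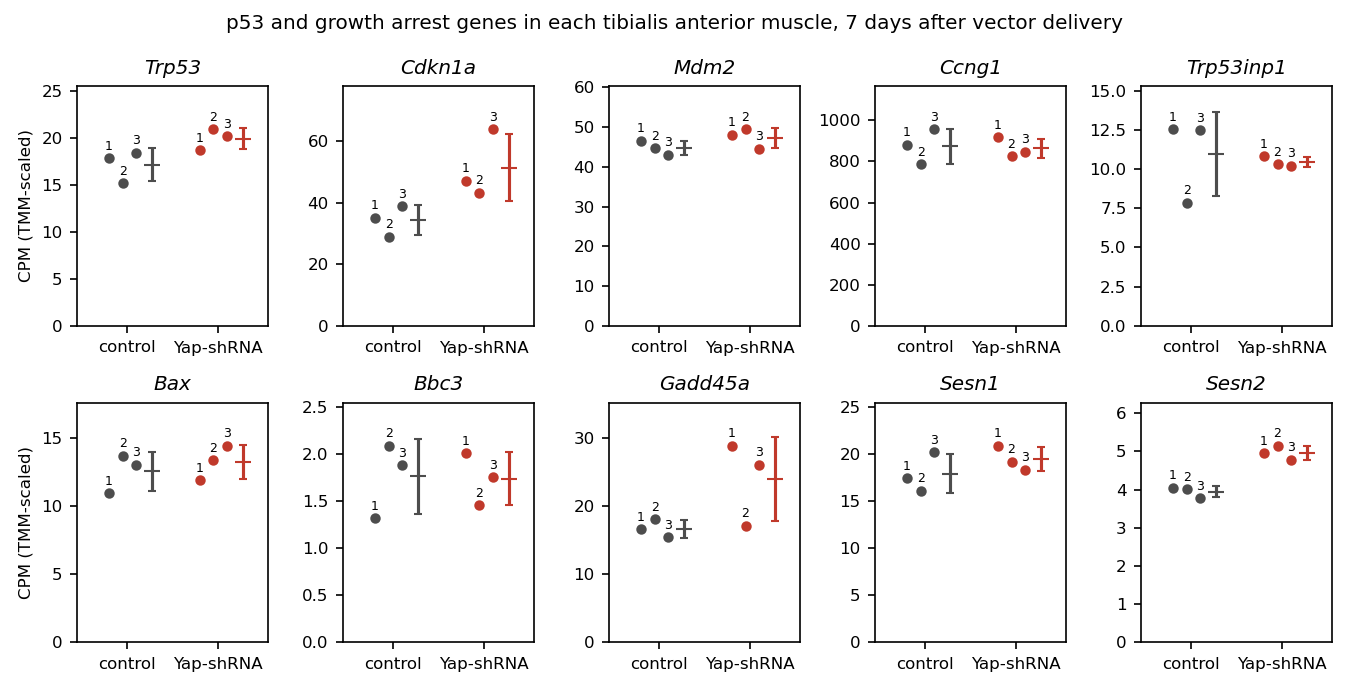
Levels of the 10 genes in each muscle, in TMM-scaled CPM on a linear axis for each gene, with numbered points for single muscles of the control and Yap-shRNA groups and bars for the mean ± SD of 3 muscles. For Cdkn1a all Yap-shRNA muscles (43.3 to 63.9 CPM) sit above all control muscles (29.0 to 38.8 CPM), whereas for Gadd45a 1 Yap-shRNA muscle (17.1 CPM) lies among the control muscles.

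Of the genes that act in apoptosis, Bax (ENSMUSG00000003873) encodes a pore-forming protein of the outer mitochondrial membrane and lies at chr7:45461697-45466898 on the minus strand. It was at 11.0, 13.7 and 13.05 CPM in control muscles 1, 2 and 3 and at 11.9, 13.4 and 14.4 CPM in Yap-shRNA muscles 1, 2 and 3. The groups overlapped over most of their range, with a log2 fold change of 0.07 (SE 0.14, 95% interval -0.24 to 0.39). In Bax, 192 exonic bases (12.2%) overlap Gm45808 on the same strand.

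Bbc3 (ENSMUSG00000002083, chr7:16308393-16318205, plus strand) encodes Puma, a BH3-only activator of apoptosis. It had 17 to 25 counts per library, at 1.32, 2.09 and 1.89 CPM in control muscles 1, 2 and 3 and 2.01, 1.46 and 1.75 CPM in Yap-shRNA muscles 1, 2 and 3. The control range enclosed all Yap-shRNA muscles. Its log2 fold change was -0.02 (SE 0.30), and at this depth its 95% interval ran from -0.69 to 0.65, so a difference as large as that of Cdkn1a could not have been told from none.

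Trp53inp1 (ENSMUSG00000028211, chr4:11156431-11174379, plus strand) encodes a nuclear stress protein that promotes p53 activity and autophagy. Control muscles 1, 2 and 3 were at 12.5, 7.86 and 12.5 CPM and Yap-shRNA muscles 1, 2 and 3 at 10.8, 10.3 and 10.2 CPM. Control 2 alone was below the Yap-shRNA muscles and the other two control muscles were above them. Its log2 fold change was -0.07 (SE 0.19, 95% interval -0.50 to 0.36). Without control 2 it was -0.26, the lowest value when single muscles were left out.

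The sestrins restrain mTORC1 signalling and oxidative stress. Sesn1 (ENSMUSG00000038332, chr10:41809935-41908424, plus strand), which is the p53-responsive sestrin best known in muscle, was at 17.4, 16.1 and 20.2 CPM in control muscles 1, 2 and 3 and at 20.9, 19.2 and 18.3 CPM in Yap-shRNA muscles 1, 2 and 3. The groups overlapped, since control 3 was above Yap-shRNA 2 and 3, and the log2 fold change was 0.12 (SE 0.12, 95% interval -0.16 to 0.39).

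Sesn2 (ENSMUSG00000028893, chr4:132492032-132510501, minus strand), which also responds to the stress factor ATF4, was counted 46 to 67 times per library. It was at 4.05, 4.01 and 3.77 CPM in control muscles 1, 2 and 3 and at 4.95, 5.14 and 4.78 CPM in Yap-shRNA muscles 1, 2 and 3. The groups did not overlap. The pooled SD within groups was 0.0517 on the log2 scale. This is less than random counting alone would give at 46 to 67 counts, so it is no measure of precision. For Sesn2 the log2 fold change was 0.33 (SE 0.16, 95% interval -0.04 to 0.70), with an unadjusted p of 0.0757 and an adjusted p of 1.00 by the edgeR quasi-likelihood test. The exact two-sided permutation test gave p = 0.1, the smallest possible.

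**Figure D2:**
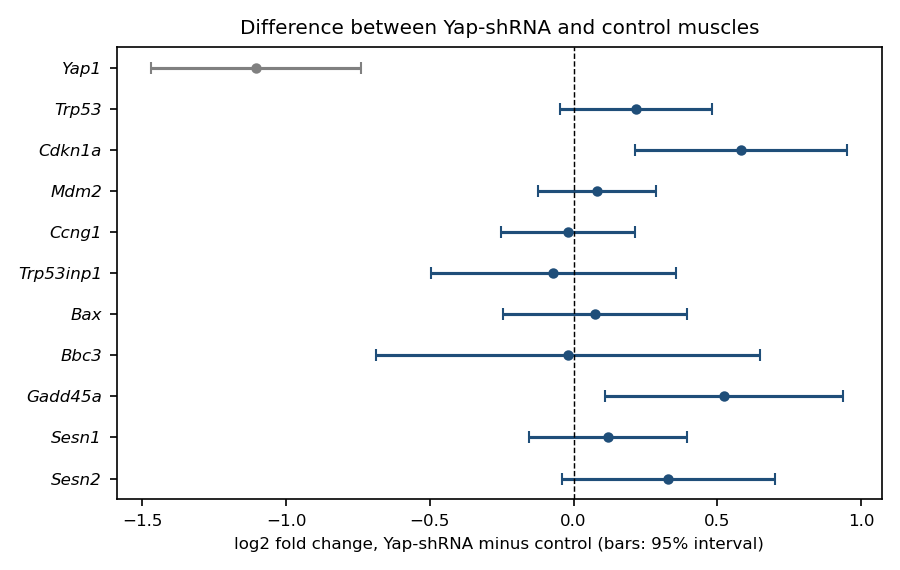
Log2 fold change of Yap1 (grey) and of each of the 10 genes, Yap-shRNA against control, with points for the estimate and bars for the unadjusted 95% interval of the edgeR quasi-likelihood fit. The intervals of Cdkn1a (0.21 to 0.95) and Gadd45a (0.11 to 0.94) lie above 0, and those of the other 8 of the 10 genes span it.

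The spread between muscles had a common feature. In 10 of 10 members the lowest muscle was a control muscle, which was so for 60.4% of all genes, and in 5 members (Trp53, Cdkn1a, Ccng1, Trp53inp1 and Sesn1) it was control 2, against 23.1% of all genes. The highest muscle was a Yap-shRNA muscle in 7 members and in 41.0% of all genes. The counts of 10 and 7 were the same with upper-quartile factors and with DESeq2 size factors. They are a description made after the values were seen, and the members share the same 6 libraries.

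Levels were compared between genes as CPM per kilobase of exon length. In control muscles Ccng1 was at 249.1 CPM per kilobase, and the other 9 members were all below 11. Cdkn1a at 9.66, Gadd45a at 9.46, Mdm2 at 8.81 and Bax at 7.98 CPM per kilobase followed, and each of these overlapped its neighbour in this order over the 3 control muscles. Sesn1 at 4.50 and Trp53 at 4.25 CPM per kilobase overlapped each other and lay below Bax. Trp53inp1 at 1.69, Sesn2 at 1.14 and Bbc3 at 0.832 CPM per kilobase closed the order without overlap between neighbours. In Yap-shRNA muscles the order was kept except that Trp53, at 4.94, stood above Sesn1, at 4.89 CPM per kilobase, and these overlapped.

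Other genes of the p53 pathway were taken from 10 lists with 75 symbols, of which 62 had a row in the table. None was called by the edgeR quasi-likelihood test, 1 had an unadjusted p under 0.05 in the higher direction and 0 in the lower direction. The log2 fold changes were positive in 33 and negative in 29, with a median of 0.002, and 56 of the 62 were smaller than 0.25 in size. All 3 Yap-shRNA muscles were above all controls in 1 of these genes and below in 2 (Crebbp and Cdkn1c, picked here after their values were seen).

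Upstream of p53, the 5 kinases and sensors tested ran from -0.11 for Chek2 to 0.07 for Atm, both kinases of the DNA damage response. A list of 12 tested genes that regulate p53 or are otherwise linked to it ran from -0.16 for Wrap53 to 0.13 for Trp53bp1, which encodes the damage adaptor 53BP1. Of the p53 family, Trp63 was tested, at 0.17. All of these values are log2 fold changes, and none had an unadjusted p under 0.05.

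Among the targets of p53, the 7 other arrest genes ran from -0.52 for Sfn to 0.55 for Eda2r, a receptor for ectodysplasin A2. Sfn was counted only 7 to 21 times per library. Eda2r was counted 77 to 238 times per library. It was at 18.1, 6.44 and 9.60 CPM in control muscles 1, 2 and 3 and 17.5, 13.7 and 19.0 CPM in Yap-shRNA muscles 1, 2 and 3, with control 1 among the Yap-shRNA muscles and an unadjusted p of 0.115 by the edgeR quasi-likelihood test. Without control 1 its log2 fold change was 1.06, with an unadjusted p of 0.000734 and an adjusted p of 0.511 in the same test, and without control 2 it was 0.27, with an unadjusted p of 0.331. The 9 other apoptosis genes had a median of 0.023 and ran from -0.23 for Perp, with only 8 to 40 counts per library, to 0.33 for Aen. Aen, which encodes an apoptosis-enhancing nuclease induced by p53, was at 31.9, 34.9 and 35.9 CPM in control and 46.6, 45.3 and 36.8 CPM in Yap-shRNA muscles 1, 2 and 3. Its groups did not overlap, with Yap-shRNA 3 just above control 3, and its log2 fold change of 0.33 (SE 0.11) had an unadjusted p of 0.0192 and an adjusted p of 1.00 by the edgeR quasi-likelihood test. Repair and nucleotide genes (6 tested) ran from -0.08 for Xpc to 0.19 for Polk, and metabolic and autophagy genes (6 tested) from -0.10 for Trp53inp2 to 0.21 for Dram1.

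Relatives of the members were also tested. Gadd45b and Gadd45g, the other two Gadd45 genes, were at 0.05 and 0.04 on the log2 scale, beside 0.52 for Gadd45a. The 5 other CDK inhibitors tested, relatives of Cdkn1a in function, ran from -0.33 for Cdkn2b to 0.00042 for Cdkn2c, beside 0.58 for Cdkn1a. Cdkn2b had only 11 to 29 counts per library. In the Bcl2 family, to which Bax and Bbc3 belong, the 10 other genes ran from -0.12 for Bcl2l1 to 0.21 for Bid. Bid had only 8 to 16 counts per library. The differences between Gadd45a or Cdkn1a and their relatives were not tested.

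**Figure D3:**
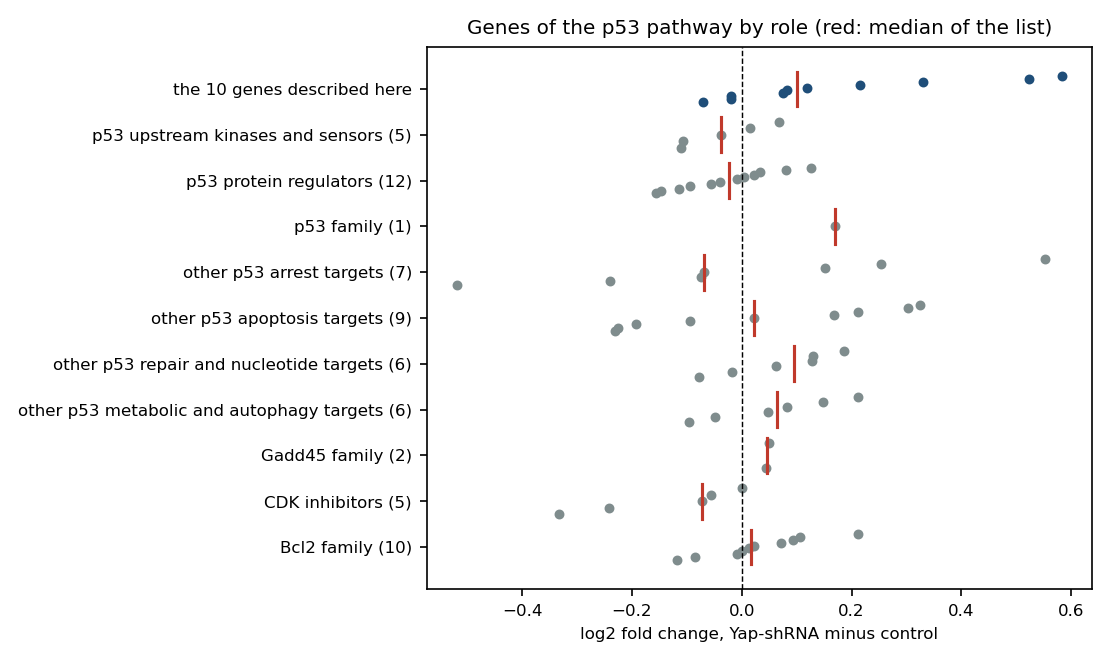
Log2 fold changes, Yap-shRNA against control, of the 10 genes described here and of the genes tested in each of 10 p53 pathway lists, with 1 point per gene, a red line at the median of each list and the number tested in brackets. Cdkn1a (0.58) and Gadd45a (0.52) lie to the right of nearly all genes of the lists, most of which are within 0.25 of 0.

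Gadd45a was set beside 7 genes that are induced in denervated muscle. The median log2 fold change of these 7 genes was 0.13, with 5 positive and 2 negative, and none had an unadjusted p under 0.05. They ran from -0.33 for Myog, a myogenic transcription factor, to 1.06 for Runx1, a transcription factor of denervated fibres. Runx1 was at 6.07, 1.505 and 1.23 CPM in control muscles 1, 2 and 3 and at 4.95, 4.53 and 9.01 CPM in Yap-shRNA muscles 1, 2 and 3, so that control 1 lay among the Yap-shRNA muscles. Its log2 fold change was 2.16 without control 1 and from 0.68 to 1.24 without any other single muscle. Chrna1 and Chrng, the alpha and gamma subunits of the acetylcholine receptor, were picked after their values were seen. Chrna1 was at 22.3, 16.5 and 16.9 CPM in control and 35.7, 12.1 and 31.1 CPM in Yap-shRNA muscles 1, 2 and 3, and Chrng was at 1.71, 0.33 and 0.49 CPM in control and 2.85, 0.15 and 2.39 CPM in Yap-shRNA muscles. Chrng had only 2 to 34 counts per library. With single muscles left out, Chrna1 ranged from 0.22, without Yap-shRNA 1, to 0.85, without Yap-shRNA 2, and Chrng from 0.56, without Yap-shRNA 1, to 2.08, without control 1, on the log2 scale. As in Gadd45a, Yap-shRNA 2 was the lowest muscle of its group and Yap-shRNA 1 and 3 were above the controls in Chrna1, Chrng and Hdac4. In Hdac4 Yap-shRNA 2 was above the controls too. In Runx1, Myog, Ncam1 and Musk control 1 was above Yap-shRNA 1. The part of such transcripts in the Gadd45a values was not tested.

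**Figure D4:**
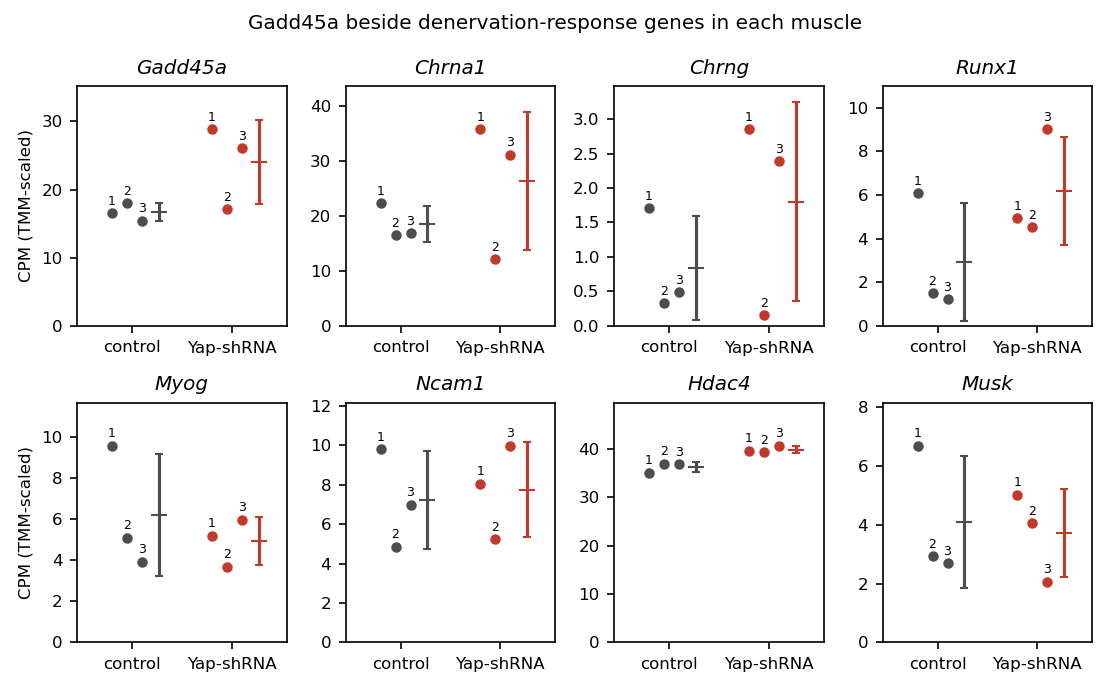
Levels of Gadd45a and of the 7 denervation genes in each muscle, in TMM-scaled CPM, with numbered points for single muscles of both groups and bars for the mean ± SD of 3 muscles. Gadd45a (28.9, 17.1 and 26.1 CPM in Yap-shRNA muscles 1, 2 and 3) and Chrna1 (35.7, 12.1 and 31.1 CPM) are both lowest of their group in Yap-shRNA 2. Chrna1 was picked after its values were seen. The same muscle is lowest of its group in the other denervation genes except Musk, by little in Hdac4 (39.7, 39.3 and 40.7 CPM). Musk (5.03, 4.07 and 2.07 CPM) is lowest in Yap-shRNA 3, and the log2 fold changes of Myog and Musk are negative.

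When single muscles were left out, Cdkn1a ranged from 0.40 to 0.69 on the log2 scale. Its unadjusted p did not exceed 0.0226 in any of 15 fits, while its adjusted p was 0.609 at the lowest. The 15 fits include the main one and the one without a count filter, which is identical to it. Gadd45a ranged from 0.37 to 0.72, the highest without Yap-shRNA 2. Its unadjusted p was 0.0600 without control 3, 0.0918 without Yap-shRNA 1 and 0.0609 without Yap-shRNA 3, so that without any 1 of these muscles 1 member rather than 2 had an unadjusted p under 0.05. Trp53 ranged from 0.14 to 0.27, Mdm2 from 0.049 to 0.12, Sesn1 from 0.050 to 0.21 and Sesn2 from 0.30 to 0.35. For Ccng1, Trp53inp1, Bax and Bbc3 the sign depended on which muscle was left out.

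**Figure D5:**
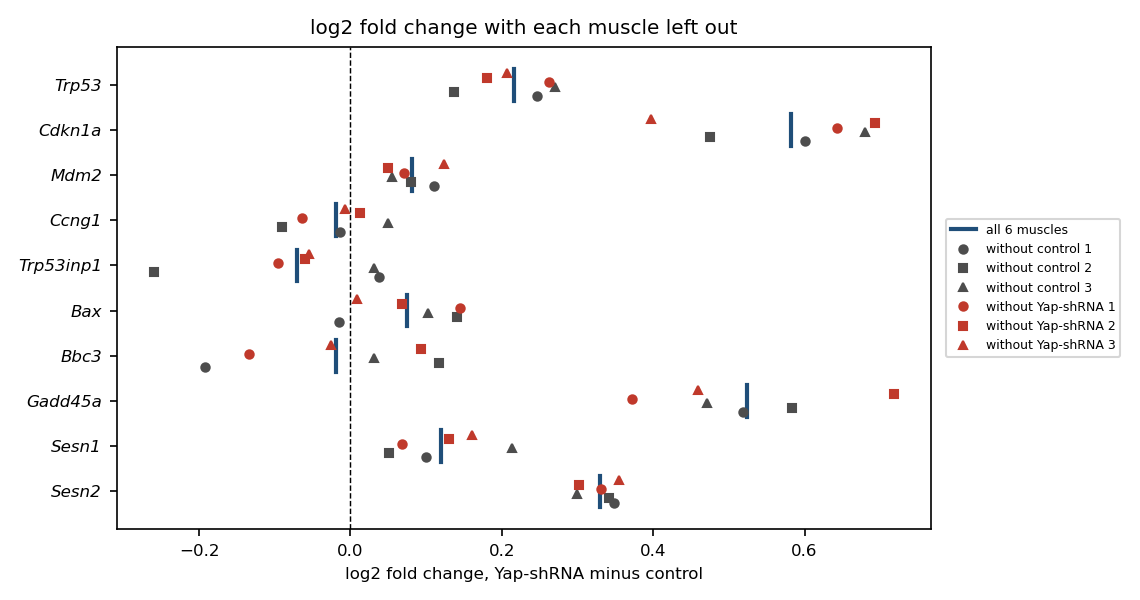
Log2 fold change of the 10 genes, Yap-shRNA against control, from all 6 muscles and from fits that leave out single muscles. Cdkn1a stays between 0.40 and 0.69 and Sesn2 between 0.30 and 0.35, whereas Ccng1, Trp53inp1, Bax and Bbc3 have points on both sides of 0.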

How the data were processed

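PolyA+ RNA of 6 whole TA muscles was sequenced, and the authors deposited raw read counts per gene. The aligner, the counter and its strand setting are not given in the sources used here. The submitters' processing notes name bcl2fastq 2.20.0.422 and GRCm38. Every deposited row held at least 60 counts over the libraries, so the filter applied here (60 counts) removed no gene.

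After TMM scaling, the counts were tested by the quasi-likelihood test of edgeR 4.0.16 in R 4.3.3, with group as the only term, Benjamini-Hochberg adjustment over 13226 genes and a threshold of 0.05. Standard errors came from the log2 fold change and the F statistic, and 95% intervals from its degrees of freedom. Alternatives were DESeq2 1.42.0, the likelihood ratio test, limma-voom (limma 3.58.1), other scalings and count filters, a replicate block, and leaving out each muscle. The scripts were tested on simulated data. Coordinates and exon lengths came from GENCODE M21 on GRCm38.

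The members and gene lists were chosen with earlier results of these data known. Named genes were the members, Yap1, the genes with the highest and lowest log2 fold change of each list described, and the 3 genes whose centred log2 CPM differed least from that of Cdkn1a. A gene that a list held is not reported here and was left out of that list. Other named genes are said to have been picked after their values were seen. The labels name 3 animals but do not say which muscle came from which, and p-values measure the spread between these muscles.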

Additional observations from a re-analysis of the deposited data

How the results depend on the processing

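The number of genes called was 0 by the edgeR quasi-likelihood test, 5 by DESeq2 and 5 by the likelihood ratio test, and from 0 to 1 when single muscles were left out, the 1 gene being Mir155hg without Yap-shRNA replicate 3. Members called were 0 under all alternatives. Yap1 passed the threshold by DESeq2 (-1.10) and by the likelihood ratio test (-1.10), and ranged from -1.29 to -0.93 when muscles were left out. Genes with an unadjusted p under 0.05 numbered 232, but 135 with DESeq2, 957 without control 1 and 129 without control 3. The cause was not tested.

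The labels do not say that a number is an animal, so the main fit had no term for the animal. Its SEs and p-values thus include any spread between animals. Muscles of the same number correlated at -0.0654, 0.196 and -0.315 in their deviations from the group means. Of 6 muscles, 1 correlated best with its own number. These values cannot decide whether a number is an animal, because single muscles stood apart in tendon, liver and fibroblast markers. Single genes, picked after their values were seen, did match by number, such as Pdk4 at 1072, 307 and 181 CPM in control and 1129, 342 and 185 CPM in Yap-shRNA muscles 1, 2 and 3. Chac1 did so too, at 53.9, 93.7 and 19.2 CPM in control and 65.5, 103.7 and 15.8 CPM in Yap-shRNA muscles. The tendon marker Tnmd did not, at 15.3, 3.93 and 3.04 CPM in control and 2.68, 2.38 and 16.8 CPM in Yap-shRNA muscles. With the replicate block Yap1 was at -1.13 (adjusted p 0.105, edgeR quasi-likelihood test), Cdkn1a at 0.57 (unadjusted p 0.00053) and Gadd45a at 0.50 (unadjusted p 0.0226), and no call changed, while the unadjusted p was 0.0202 for Eda2r, 0.0429 for Runx1, 0.0423 for Cebpd and 0.0567 for Atf3. Eda2r also had 0.0472 with DESeq2, and Runx1 0.0271 and Atf3 0.0757 with limma-voom.

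Of the members' log2 fold changes, 132 under the alternatives kept their direction and 8 reversed, all with a muscle left out. The alternative without a count filter was identical to the main fit, because the filter removed no gene. Its part of these counts, and of those for the other named genes, was thus fixed in advance. The ranges were -0.091 to 0.049 for Ccng1, -0.26 to 0.037 for Trp53inp1, -0.015 to 0.15 for Bax and -0.19 to 0.12 for Bbc3. The members' median, 0.10, was from 0.11 to 0.16 with a muscle left out, the highest without control 3. Of the other named genes, 414 kept their direction and 29 reversed. Cdkn2c was at -0.047 with limma-voom, -0.00033 with at least 10 counts in every library and -0.027 with the block, and Foxo1 at 0.0020 with limma-voom and 0.0011 with the block. With muscles left out the ranges were -0.22 to 0.34 for Atm, -0.29 to 0.043 for Chek2, -0.0028 to 0.33 for Trp53bp1, -0.38 to 0.11 for Wrap53, -0.093 to 0.38 for Trp63, -0.97 to 0.18 for Perp, -0.034 to 0.62 for Dram1, -0.11 to 0.19 for Gadd45b, -0.31 to 0.33 for Gadd45g, -0.14 to 0.22 for Cdkn2c, -0.050 to 0.17 for Pcna, -0.26 to 0.015 for Ddit3, -0.15 to 0.13 for Foxo1 and -0.57 to 0.13 for Myog. With 3 muscles a group and 17 to 25 counts for Bbc3, small differences in such genes were not detectable.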

Other observations

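Genes that share signals with the p53 targets were also tested. Of 9 proliferation genes, 5 had a row in the table and all were positive, from 0.06 for Pcna to 0.65 for Top2a on the log2 scale, with a median of 0.29 and none with an unadjusted p under 0.05. Top2a had only 4 to 21 counts per library, and ranged from 0.21, without Yap-shRNA 2, to 1.48, without control 1. Mcm5, Rrm2 and Mcm2 were picked after their values were seen. Mcm5 and Rrm2 had 12 to 49 and 11 to 29 counts per library, and Mcm2 had 118 to 166. In Mcm2 the groups did not overlap, at 11.4, 11.2 and 9.68 CPM in control and 12.1, 12.7 and 12.4 CPM in Yap-shRNA muscles 1, 2 and 3. Its log2 fold change was 0.21, with an unadjusted p of 0.148 by the edgeR quasi-likelihood test. The 8 ATF4 stress genes, listed because Sesn2 also responds to ATF4, had a median of 0.03 and ran from -0.12 for Ddit3 to 1.03 for Atf3. Atf3, a stress-induced transcription factor, was at 5.21, 3.43 and 3.12 CPM in control muscles 1, 2 and 3 and 3.52, 12.4 and 8.05 CPM in Yap-shRNA muscles 1, 2 and 3, with an unadjusted p of 0.0311 and an adjusted p of 1.00 by the edgeR quasi-likelihood test. The groups overlapped through Yap-shRNA 1. With single muscles left out Atf3 ranged from 0.56, without Yap-shRNA 2 (unadjusted p 0.171, edgeR quasi-likelihood test), to 1.38, without Yap-shRNA 1. The 11 Foxo and glucocorticoid genes had a median of 0.11, from -0.01 for Foxo1 to 0.40 for Cebpd, which ranged from 0.14, without Yap-shRNA 2, to 0.72, without control 2, and 0 of 11 had an unadjusted p under 0.05.

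The genes whose levels over the 6 muscles were most like Cdkn1a were Tmem200b, Glb1l2 and Bcl3, with root mean square differences of 0.104, 0.115 and 0.124 in centred log2 CPM. Log2 fold changes near that of Cdkn1a, here 0.59, 0.57 and 0.49, follow from this choice, which used the muscles of both groups. The levels were low, at 1.09 to 2.07, 2.26 to 5.42 and 1.67 to 3.99 CPM. The unadjusted p was 0.0654, 0.0654 and 0.132 by the edgeR quasi-likelihood test.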
